A study of Mus musculus with 2 samples.

Results

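Ferritins and metallothioneins are the proteins in which cells keep iron and zinc, and the transcripts of 4 of their genes were followed here across the cell classes of the mouse ileal crypt: Fth1, Ftl1, Mt1 and Mt2. They were taken by name from the 31053 genes of the deposited count matrices, and all 4 were among the 10994 genes that passed the filter on low counts. The data are single-cell RNA-seq of live Tom+ crypt cells from the ileum of Atoh1CreER-T2;R26RTom mice, labelled WT, that were given tamoxifen at 1 mg/mL in 2 doses, 24 h apart, and used 12 h later. In this model tamoxifen lets Cre switch on the R26RTom reporter where Atoh1 is transcribed, and Atoh1 encodes the transcription factor of the secretory lineages. All cells come from 1 group with 2 libraries, called replicate 1 and replicate 2, and the labels do not say whether these were separate animals. No untreated or Tom- group was analysed here. The cells had been assigned by the authors to 12 classes, and the counts of the genes were added up per class and library, which gave 24 sums.

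Ferritin is a hollow shell built of heavy chains, encoded by Fth1, which oxidise iron so that it can enter, and light chains, encoded by Ftl1, which help to lay down the mineral core. The translation of both mRNAs is blocked, when iron is scarce, by iron regulatory proteins that bind a hairpin near the 5′ end, so a transcript level is not a protein level. Metallothioneins are small cysteine-rich proteins that bind zinc and copper. Mt1 and Mt2 are neighbours and are induced through metal response elements by the zinc-sensing factor MTF1, as well as by oxidative stress. In the crypt, Paneth cells are known for the zinc that they store in their granules.

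The hairpin letters are shown because they are the shared control element of both ferritin genes. In each, the 30 bases below lie in the first exon, in the 5′ UTR, with the CAGTG of the loop in capitals. The Fth1 site is at chr19:9982732-9982761 on the plus strand and the Ftl1 site at chr7:45459778-45459807 on the minus strand (mm10, GENCODE M21).
Fth1: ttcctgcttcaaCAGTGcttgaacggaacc
Ftl1: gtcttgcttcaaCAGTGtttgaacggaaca
The loop CAGTG with the unpaired C of the consensus before it, searched on the transcript strand, occurs in the first 100 bases of 3.76% of protein-coding transcripts. The Fth1 bases shown are 87 to 116 of its transcript, so its loop runs past the first 100 bases. These data measure transcripts and say nothing of binding at these sites.

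For Mt1 and Mt2, the stretch from 200 to 11 bases before the RefSeq start is shown as background. Whether these letters bear on the levels of either gene was not tested. It lies at chr8:94178889-94179078 for Mt1 and at chr8:94172418-94172607 for Mt2, both on the plus strand (RefSeq, GRCm38.p6). Capitals mark the core of the metal response element, TGCACNC or TGCGCNC, searched on both strands.
Mt1: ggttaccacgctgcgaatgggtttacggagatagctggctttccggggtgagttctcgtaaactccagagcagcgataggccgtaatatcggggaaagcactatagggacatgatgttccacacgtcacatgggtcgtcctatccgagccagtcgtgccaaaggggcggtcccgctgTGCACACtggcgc
Mt2: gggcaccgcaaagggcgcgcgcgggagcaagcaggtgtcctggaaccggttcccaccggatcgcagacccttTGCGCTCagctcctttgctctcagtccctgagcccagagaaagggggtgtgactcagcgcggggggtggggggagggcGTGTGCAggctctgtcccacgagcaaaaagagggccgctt
In the 250 bases before the start, Mt2 held 3 matches, the first of them upstream of the stretch shown, and Mt1 held 1. Of all RefSeq windows of this length, 21.4% held at least 1 match and 1.26% at least 3. The annotated starts need not be the ones used: in the longest GENCODE transcripts, the first 200 bases held 4 further matches in Mt1, followed by the letters TATAAA at base 129, and 3 in Mt2, followed by TATAAA at base 90. At least 3 matches occurred in 0.597% of protein-coding transcripts over that length, and TATAAA in 2.52%. The antioxidant response core, TGACNNNGC, occurred once in the Mt2 window and not in those of Mt1, Fth1 or Ftl1, against 10.2% of all windows. No search for this core in the first 200 bases of the transcripts is given here. Its absence from a window is therefore not read as absence from the gene's promoter. The antioxidant match in Mt2 does not overlap the metal response matches, and no binding was measured.

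Replicate 1 held 5305 listed cells with a median of 5706 UMIs, and replicate 2 held 6257 with a median of 3503. The sums ranged from 129631 UMIs (EC, replicate 1) to 13770059 (GOBLET-PRE, replicate 1). Among the 11562 listed cells, 12 barcodes occurred in both libraries. Each set of class markers was highest in the class named for it, and those of all hormone-making cells in EC. In ENTERO-PRO, read as enterocyte progenitors, enterocyte markers summed to 13678 and 5398 CPM, but 5 goblet markers also reached 45298 and 49036 CPM, against 7897 and 13037 in ISC, read as stem cells. Markers of other tissues had few UMIs in all listed cells: Ptprc, Cd3e, Cd79a and Lyz2 together had 93, and Col1a1, Col3a1 and Pdgfra had 1. Endothelial markers had 25 and erythroid markers 19. In single sums these immune markers reached 36.2 CPM (TUFT) and the endothelial markers 46.3 CPM (EC). Cd74 and Vim, which gut epithelial cells can also make, were left out of these counts and had 37631 and 433 UMIs.

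Fth1 transcripts were most abundant in PANETH, the antimicrobial cells of the crypt base, with 4195 and 3437 scaled CPM in replicates 1 and 2 (3816 ± 536, mean ± SD, n = 2). Scaled CPM are counts relative to all UMIs of a sum, corrected by TMM factors for a few genes taking a large share of the UMIs. ENTERO-PRO came next with 1989 and 1907, and both libraries of each of these classes lay above those of every class after them. PANETH-PRE, the Paneth precursors, had 1615 and 1354, GOBLET-PRE 1396 and 1192, ISC 1364 and 1146, GP 1207 and 1033, and SEC-PRO 1069 and 912. In this stretch each class overlapped its neighbour in the order. No source used here says what GP stands for. SEC-PRO is read as secretory progenitors. TUFT had 951 and 877, GOBLET 890 and 934, and the hormone-making classes the least, with 756 and 598 in EEC-PRE, 626 and 648 in NON-EC and 590 and 583 in EC. On this scale the mean level was 6.51-fold higher in PANETH than in EC. The order differs with CPM of all UMIs, which leave out the TMM factors. There the means were 920 in PANETH, at rank 8, and 743 in EC, while ENTERO-PRO was highest (2204) and GOBLET lowest (616).

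With scaled CPM, Ftl1 was far more even, with a 2.27-fold range. This contrast depends on the scale: with CPM of all UMIs the means ran from 408 to 1286 for Ftl1 and from 616 to 2204 for Fth1. On that scale PANETH had the least Ftl1. PANETH again had the most, 1909 and 1480 scaled CPM (1694 ± 303, n = 2), and it was the only class set apart from its neighbour in the order. GOBLET-PRE followed with 1179 and 1011, and the other means lay between 747 in ISC (826 and 669) and 1031 in EEC-PRE (1212 and 850). EEC-PRE, at rank 10 for Fth1, was at rank 3 for Ftl1, where its libraries overlapped those of most other classes.

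**Figure D1:**
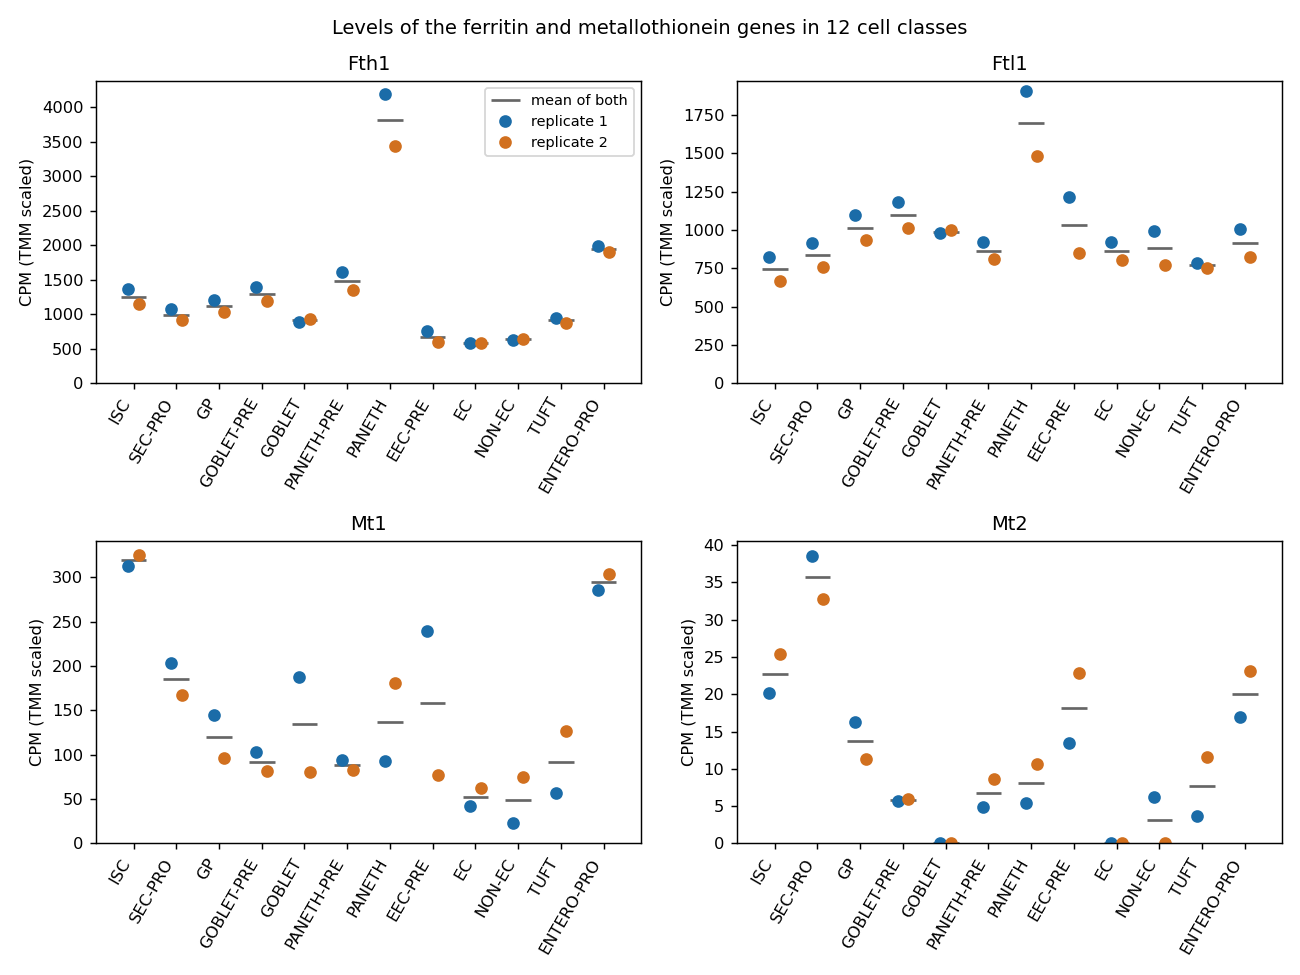
Scaled CPM (TMM) of Fth1, Ftl1, Mt1 and Mt2 in the 12 cell classes; each point is 1 library and the bar the mean of both. PANETH stands above all other classes for the ferritins on this scale, though not with CPM of all UMIs, ISC and ENTERO-PRO for Mt1 and SEC-PRO for Mt2.

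Class pairs were compared with edgeR's quasi-likelihood test over all genes, with the library as a term and Benjamini-Hochberg adjusted p. No source used here states the rule behind the authors' classes, and if it used the same expression values the p-values are not independent evidence. They cover only the spread left between 2 libraries, which may be technical. Over 13 such comparisons, Fth1 passed the threshold of 0.05 in 6 (3 higher and 3 lower), Ftl1 in 6 (5 higher and 1 lower), Mt2 in 5 (1 higher and 4 lower) and Mt1 in none. Over the same comparisons the share of all genes called ran from 1.52% to 37.0%, so these counts alone do not set a gene apart. Comparisons that have a class in common share its sums.

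Between PANETH-PRE and PANETH both ferritin genes were higher in the mature cells, Fth1 by 1.36 ± 0.09 on the log2 scale (± SE, adjusted p = 5.9e-23) and Ftl1 by 0.96 ± 0.09 (adjusted p = 2.7e-14). These were 2 of the 4 genes studied, in a comparison in which 8.10% of all genes were called. Mt1 (0.66 ± 0.43, adjusted p = 0.47) and Mt2 (0.30 ± 0.51, adjusted p = 0.83) did not pass. The direction depends on the scale. In PANETH the 20 most abundant genes held 81.5% and 79.0% of all UMIs, against 38.6% and 37.6% in PANETH-PRE, and the TMM factors of PANETH were 0.229 and 0.256. With CPM of all UMIs, the median of all genes fell by 1.71 in this comparison (0.09 with TMM), and Fth1 (-0.47) and Ftl1 (-0.87), like Mt1 (-1.16) and Mt2 (-1.50), were lower in PANETH. Relative to that median, Fth1 was 1.24 higher and Ftl1 0.84 higher.

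Counts per cell need neither scale. A PANETH cell held 21.1 and 11.6 Fth1 UMIs in replicates 1 and 2, against 10.3 and 5.94 in PANETH-PRE. Per cell, Fth1 was thus higher in PANETH within each library, but PANETH cells also had the deepest libraries, with medians of 23375 and 12874 UMIs against 6600 and 4342 in PANETH-PRE. For Ftl1 the values were 9.59 and 4.98 UMIs per PANETH cell and 5.87 and 3.55 per PANETH-PRE cell.

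With scaled CPM, the maturation of goblet cells did not show this pattern. Fth1 had 1396 and 1192 scaled CPM in GOBLET-PRE and 890 and 934 in GOBLET, the mature mucus-making cells, a difference of -0.48 ± 0.11 (adjusted p = 0.0010), where 12.1% of all genes were called. The groups did not overlap. Without the library term the adjusted p was 0.070. Ftl1 differed by -0.12 ± 0.11 (adjusted p = 0.60), and passed the threshold as lower in GOBLET with TMM over all genes (-0.49, adjusted p = 0.0034) and with CPM of all UMIs (-0.83, adjusted p = 3.7e-06). GOBLET held only 90 and 151 Fth1 UMIs, from 42 and 84 cells. With CPM of all UMIs, Fth1 was also lower in GOBLET (584 and 649) than in GOBLET-PRE (1537 and 1309). On that scale it was thus lower in the mature cells of both lineages.

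The step from precursor to mature cell was therefore compared between both lineages. For Fth1 the Paneth step exceeded the goblet step by 1.84 ± 0.14 on the log2 scale (adjusted p = 3.1e-18; 2.03 in replicate 1 and 1.69 in replicate 2). For Ftl1 it did so by 1.09 ± 0.14 (adjusted p = 1.8e-08; 1.32 and 0.89). Of all genes, 8.48% were called in this test, which Mt1 did not pass (0.25 ± 0.88, adjusted p = 0.93; -0.88 in replicate 1 and 1.13 in replicate 2). With CPM of all UMIs the median of all genes was -0.91 against 0.18, and the Fth1 difference was 0.72 (adjusted p = 0.0025) while that of Ftl1 was -0.04 (adjusted p = 0.93). The Fth1 difference thus kept its direction on either scale and the Ftl1 difference did not. Between the mature cells themselves, where 18.8% of genes were called, Fth1 was 4.11-fold higher in PANETH than in GOBLET (log2 2.04 ± 0.11, adjusted p = 4.3e-28), and 0.56 on the log2 scale with CPM of all UMIs (adjusted p = 0.0011). Ftl1 was higher by 0.75 ± 0.11 (adjusted p = 1.3e-07), but lower by that other scale (-0.73).

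**Figure D2:**
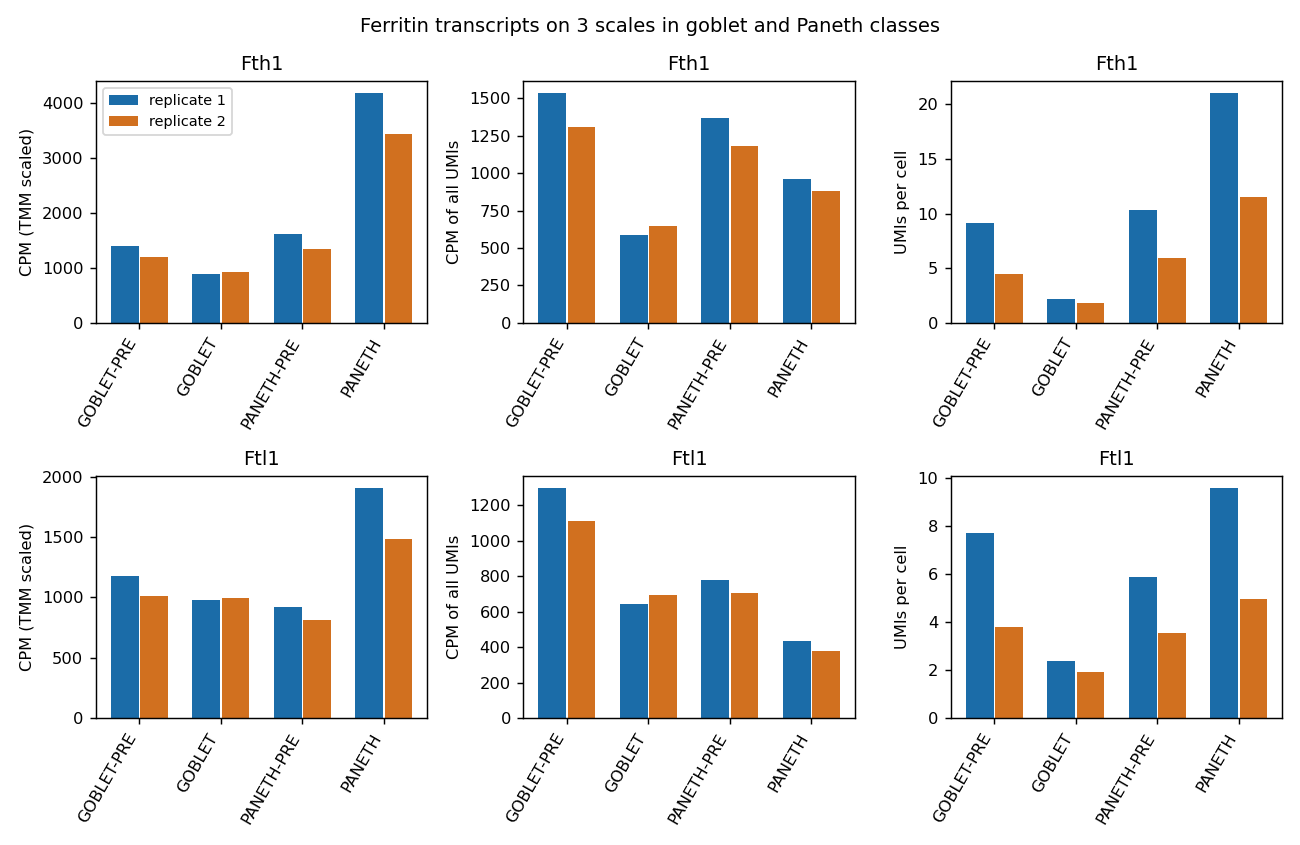
Fth1 (top) and Ftl1 (bottom) in goblet and Paneth classes as scaled CPM, as CPM of all UMIs and as UMIs per cell; bars are single libraries. PANETH is highest with scaled CPM and per cell, while GOBLET-PRE is highest with CPM of all UMIs.

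Fth1 was lower in secretory progenitors than in stem cells, and both ferritin genes were higher in ENTERO-PRO. SEC-PRO had less Fth1 than ISC (-0.34 ± 0.08, adjusted p = 0.00073; -0.35 and -0.33 in the 2 libraries), while Ftl1 (0.17 ± 0.09, adjusted p = 0.13) did not pass. Here 34.5% of all genes were called, 2 of the 4 genes studied among them, so a call is not unusual. Without the library term the adjusted p for Fth1 was 0.17. ENTERO-PRO had more Fth1 than ISC (0.64 ± 0.09, adjusted p = 1.8e-09) and more Ftl1 (0.29 ± 0.09, adjusted p = 0.0071), with 37.0% of genes called. The Ftl1 call was lost with DESeq2 size factors (adjusted p = 0.060), with CPM of all UMIs (0.44), without the library term (0.26) and in cells thinned to equal depth (0.052). The goblet markers given above also differed between these classes, and their part in the result was not tested.

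Among the precursors, Ftl1 passed in 3 comparisons and Fth1 in 1. GP had more Ftl1 than SEC-PRO (0.28 ± 0.09, adjusted p = 0.014; 17.1% of genes called), and PANETH-PRE less than GOBLET-PRE (-0.34 ± 0.09, adjusted p = 0.0020; 24.1% called). Neither passed without the library term (adjusted p = 0.50 and 0.26), and the GP call was also lost with CPM of all UMIs (0.14) and in thinned cells (0.069). GP to GOBLET-PRE moved neither ferritin gene past the threshold. EEC-PRE, the precursors of hormone-making cells, had less Fth1 than SEC-PRO (-0.54 ± 0.11, adjusted p = 2.7e-05) and more Ftl1 (0.30 ± 0.10, adjusted p = 0.020), where 23.3% of genes were called. Fth1 was lower in each library, by 0.50 and 0.61. Ftl1 was higher by 0.40 in replicate 1 and 0.16 in replicate 2, so without replicate 1 it was 0.16. The Ftl1 call was lost with TMM over all genes (adjusted p = 0.32), with CPM of all UMIs (0.14) and without the library term (0.30). From EEC-PRE to EC, the serotonin-making cells, and to NON-EC, no ferritin gene passed, with 9.61% of genes called in the latter step, and none of the 4 genes passed between EC and NON-EC (1.52% of genes called).

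The balance between the chains is free of any scaling, since both counts come from the same sum. Fth1 made up 69.3% ± 0.827 of Fth1 and Ftl1 UMIs in PANETH (SD, n = 2) and 68.1% ± 2.32 in ENTERO-PRO, against 63.2% ± 0.816 in PANETH-PRE and 62.7% ± 0.605 in ISC. It was between 52.5% and 54.3% in SEC-PRO, GP, GOBLET-PRE and TUFT, 47.6% and 48.4% in the libraries of GOBLET and 39.9% ± 2.05 in EEC-PRE. Within each library the exact 95% binomial intervals of PANETH (67.6 to 69.8% and 68.8 to 71.0%) and PANETH-PRE (62.2 to 65.3% and 60.8 to 64.3%) did not overlap. Nor did those of ISC (61.2 to 63.3% and 62.4 to 63.9%) and SEC-PRO (52.9 to 54.9% and 53.4 to 55.8%). These intervals cover counting error only. Over libraries, 2 against 2 cannot go below p = 0.333 in an exact two-sided permutation test, which was the value for each of the 6 pairs of classes compared in this way, for both gene pairs, also after adjustment. The share says how classes differ and not how many chains of each kind a cell holds.

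**Figure D3:**
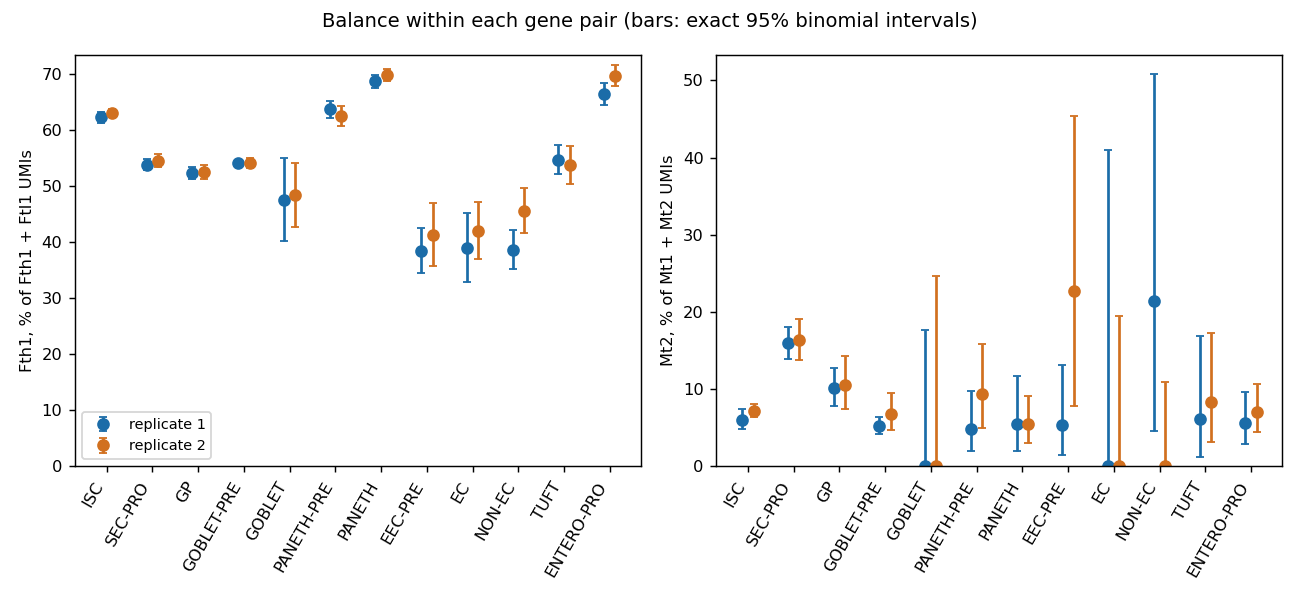
Fth1 as a percentage of Fth1 and Ftl1 UMIs (left) and Mt2 as a percentage of Mt1 and Mt2 UMIs (right) in each class; points are libraries and bars exact 95% binomial intervals. PANETH and ENTERO-PRO have the highest Fth1 share and the hormone-making classes the lowest, and SEC-PRO has 16.0% and 16.4% Mt2 against 6.04% and 7.22% in ISC.

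The metallothionein genes did not peak in Paneth cells. Mt1 was highest in ISC, with 313 and 326 scaled CPM (319 ± 9.01, n = 2), and ENTERO-PRO, with 286 and 303. The libraries of these classes did not overlap each other, and all lay above those of the other classes. SEC-PRO had 203 and 167, GP 144 and 96.0, GOBLET-PRE 103 and 81.2 and PANETH-PRE 94.2 and 82.9. Along these steps the means went down, SEC-PRO did not overlap GP, and the later classes overlapped their neighbours. In several classes the libraries disagreed: EEC-PRE had 240 and 77.6, GOBLET 188 and 80.4, PANETH 93.2 and 181, TUFT 57.4 and 127, NON-EC 22.9 and 74.9. EC had 42.6 and 62.8. The highest and lowest means were 6.53-fold apart.

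No comparison of classes passed the threshold for Mt1. The largest shift with the same sign in both libraries among the progenitor steps was that of SEC-PRO against ISC, -0.79 ± 0.29 (adjusted p = 0.056; -0.62 and -0.96). It passed with DESeq2 size factors (-0.92, adjusted p = 0.030) and with TMM over all genes (-0.89, adjusted p = 0.036), and not without the library term (adjusted p = 0.23). At an unadjusted p under 0.05, Mt1 was also lower in NON-EC than in EEC-PRE and in TUFT than in SEC-PRO, but 1 library carried each of these differences. It was -3.35 in replicate 1 and -0.05 in replicate 2 for NON-EC, which passed with DESeq2's Wald test (adjusted p = 0.017), and -1.81 and -0.40 for TUFT. The NON-EC level of replicate 1 is one that free RNA could largely give, as described below.

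Mt2 took another course and was highest in SEC-PRO, with 38.6 and 32.7 scaled CPM (35.7 ± 4.12, n = 2). ISC had 20.1 and 25.3, ENTERO-PRO 17.0 and 23.2, EEC-PRE 13.5 and 22.8 and GP 16.3 and 11.3. Both libraries of SEC-PRO lay above all of these. The rest had means of at most 8.05, and GOBLET and EC had no Mt2 UMI in either library.

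Between ISC and SEC-PRO, Mt2 was 1.54-fold higher in SEC-PRO (log2 0.63 ± 0.16, adjusted p = 0.0014; 0.91 in replicate 1 and 0.36 in replicate 2), while the estimate for Mt1 was negative. The call was lost with DESeq2's Wald test (0.53, adjusted p = 0.19) and without the library term (0.63, adjusted p = 0.082). The sum rests on 199 and 128 Mt2 UMIs in SEC-PRO and 79 and 244 in ISC. Mt2 was lower in GP than in SEC-PRO by 1.35 ± 0.20 (adjusted p = 5.2e-08), lower again in GOBLET-PRE than in GP by 1.26 ± 0.24 (adjusted p = 9.9e-05), where 9.39% of genes were called, and lower in TUFT than in SEC-PRO by 2.38 ± 0.42 (adjusted p = 3.1e-06), where 26.9% were called. Without replicate 1 the step from GP to GOBLET-PRE was -0.84 and the TUFT difference -1.44, and without replicate 2 they were -1.38 and -3.12. In EC against EEC-PRE, Mt2 also passed (adjusted p = 0.045, 7.48% of genes called). EC had no Mt2 UMI and EEC-PRE had 9. Taking 3 counts over both libraries as the upper limit in EC, the EEC-PRE level was 2.50-fold that limit. The counting error of the 9 UMIs is not included, so this is not a lower bound on the difference. That call was lost with CPM of all UMIs (adjusted p = 0.053), with DESeq2 (0.057), without the library term (0.063) and in thinned cells (0.26). No such value is given for GOBLET against GOBLET-PRE, since the GOBLET-PRE level was below the upper limit for GOBLET.

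**Figure D4:**
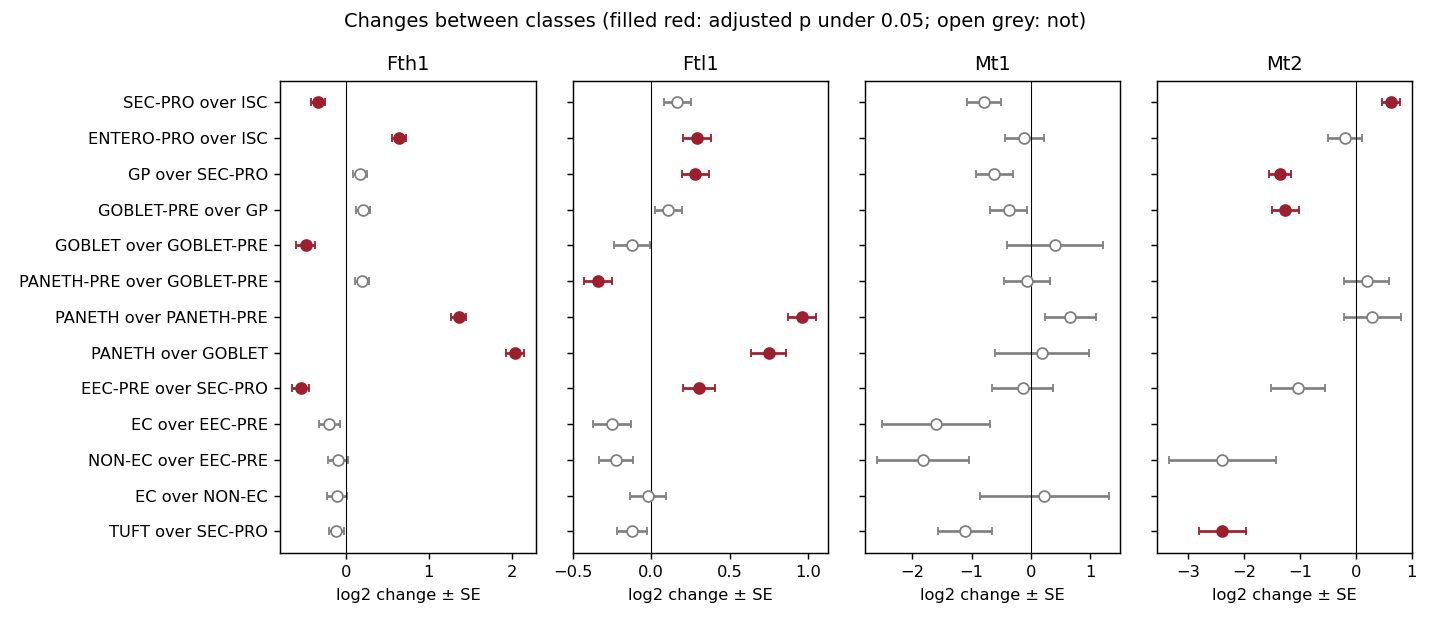
log2 change ± SE between classes for each gene, over 13 comparisons of classes; filled red points have an adjusted p under 0.05 and open grey points do not, and comparisons with a class without UMIs are left out. Fth1 and Ftl1 show their largest differences in PANETH with scaled CPM (with CPM of all UMIs PANETH is not higher than PANETH-PRE), Mt2 is lower in GP, GOBLET-PRE and TUFT, and no Mt1 point is filled.

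As a share of Mt1 and Mt2 UMIs, a value free of scaling, Mt2 came to 16.2% ± 0.281 in SEC-PRO (SD, n = 2), 10.3% ± 0.294 in GP, 6.63% ± 0.834 in ISC, 6.35% ± 1.05 in ENTERO-PRO and 6.06% ± 1.11 in GOBLET-PRE. In each library the exact intervals of SEC-PRO (14.0 to 18.1% and 13.8 to 19.2%) and ISC (4.81 to 7.47% and 6.37 to 8.14%) did not overlap. In PANETH the share was 5.56% in both libraries, from 6 and 14 Mt2 UMIs. Up to 39.4% and 25.6% of these Mt2 UMIs could be free RNA, by the bound described below. In the rarer classes the share spread widely, from 5.33% to 22.7% between the libraries of EEC-PRE.

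In single cells Mt1 was again seen most often among stem cells. In cells thinned to 2000 UMIs, which left out 375 shallower cells of replicate 1 and 901 of replicate 2, a Mt1 UMI was seen in 47.8% and 51.2% of ISC cells, 35.5% and 42.1% of ENTERO-PRO, 35.7% and 30.8% of SEC-PRO, 22.0% and 18.7% of GP and 16.9% and 12.7% of GOBLET-PRE cells. All libraries of ISC lay above those of every other class. Unthinned, the ISC shares were 73.8% and 70.6%. PANETH cells, in which 20 genes held most UMIs, had thinned shares of 2.76% and 8.53%. Unthinned, 31.7% and 28.8% of them held a Mt1 UMI. GOBLET had 9.76% and 5.26% when thinned. Both classes thus lay below GP and GOBLET-PRE by thinned share and above them by mean scaled CPM, and no order is read for them. With CPM of all UMIs they lay below as well.

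For Mt2 the thinned shares of cells were 9.23% and 7.37% in SEC-PRO, 3.88% and 5.92% in ISC, 3.50% and 2.16% in GP, and 1.33% and 1.16% in GOBLET-PRE. Here SEC-PRO was above each of the others in both libraries. Cells with a Mt2 UMI more often held Mt1: in SEC-PRO, 80.6% and 60.8% of cells with Mt2 against 31.1% and 28.4% of those without it, and in GP 52.4% and 64.3% against 20.9% and 17.7%. For stem cells (ISC) the values were 65.0% and 68.5% against 47.1% and 50.1%, the intervals of replicate 1 overlapping (40.8 to 84.6% and 42.6 to 51.6%). Cells of 1 library are not replicates, so these shares carry no test.

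In ISC and SEC-PRO, Mt1 was spread less evenly over cells than Fth1. The variance of the thinned count over its mean, which is near 1 where only sampling acts, was 1.81 and 1.87 for Mt1 in SEC-PRO and 1.49 and 1.45 in ISC, while the Fth1 ratios were 1.30 and 1.06 among secretory progenitors (SEC-PRO) and 1.19 and 1.26 among stem cells. In GP it was 5.56 in replicate 1, where the highest cell held 23 Mt1 UMIs, and 1.52 in replicate 2. Fth1 was seen in at least 88.0% of thinned cells of the 5 classes ISC, SEC-PRO, GP, GOBLET-PRE and PANETH-PRE.

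**Figure D5:**
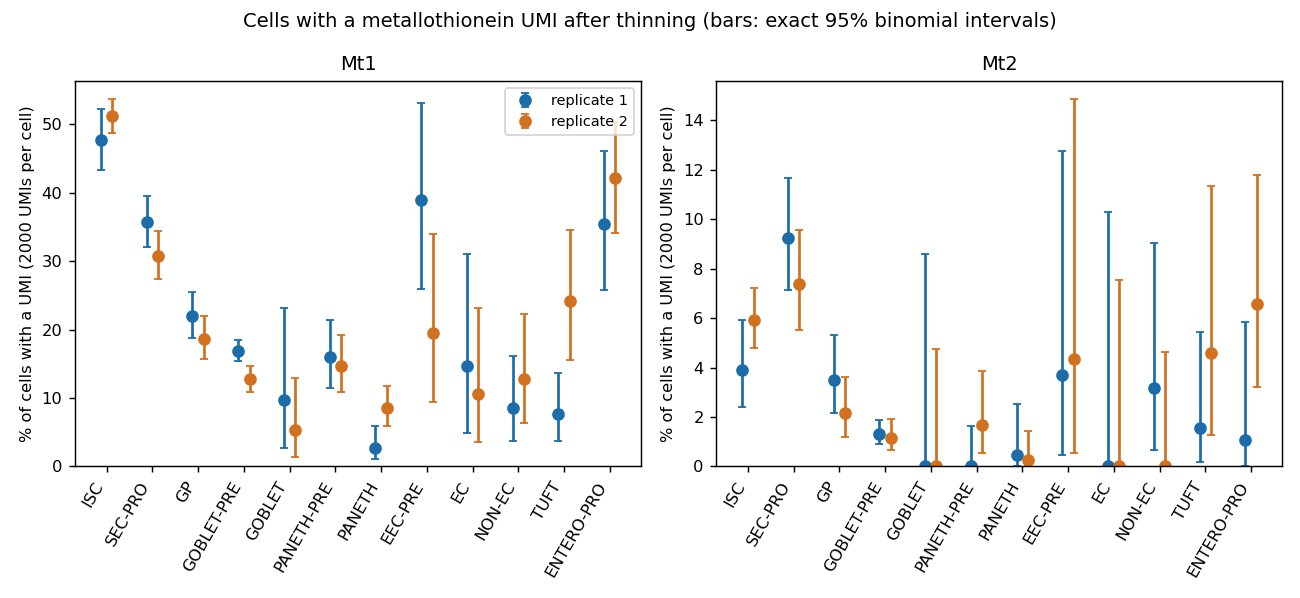
Percentage of cells with a Mt1 (left) or Mt2 (right) UMI after thinning to 2000 UMIs per cell; points are libraries and bars exact 95% binomial intervals. Mt1 is seen in about the same share of ISC cells in both libraries, 47.8% and 51.2%, and Mt2 most often in SEC-PRO.

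Free RNA in the droplets carried all 4 transcripts. In unlisted barcodes with at most 50 UMIs, Fth1 came to 1630 and 1229 CPM of all UMIs, Ftl1 to 1006 and 655, Mt1 to 229 and 215 and Mt2 to 19.9 and 24.0. On this scale Fth1 lay above free RNA in both libraries in 2 of 12 classes, ENTERO-PRO and ISC, and below it in 8, PANETH (961 and 879) among them. Ftl1 lay above it in 9 and below it in 1, PANETH (437 and 378). Mt1 lay above free RNA in both libraries in 2 of 12 classes, ISC (389 and 417) and ENTERO-PRO (319 and 348), and below it in 8. Mt2 lay above it in 2, SEC-PRO (49.4 and 41.3) and ISC, and below it in 7. Epithelial markers of other classes bound how much free RNA a sum can hold. In PANETH the least of them stood at 2.49% and 2.89% of its free RNA level, which allows free RNA to give at most 26.7% and 13.5% of the Mt1 UMIs and 4.22% and 4.05% of the Fth1 UMIs. In SEC-PRO the same bound was 1.18% and 3.41% of the Mt2 UMIs. In NON-EC of replicate 1 up to 80.6% of the Mt1 UMIs could be free RNA, and that level is not read as expression.

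Of 13 relatives of these genes, 10 were in the matrix and 3 had a UMI. Ftl1-ps1, a copy of Ftl1 on chromosome 13 that GENCODE lists as protein-coding, had 603 UMIs and was highest in PANETH (22.8 and 16.7 scaled CPM), but lowest there with CPM of all UMIs. Reads may have been split between it and Ftl1, or discarded, so the level of both is uncertain to that extent. The testis-type heavy chain genes and Ftmt had none.

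Mt3, a metallothionein better known from brain, had 432 UMIs. It was highest in PANETH-PRE, with 22.2 and 26.0 scaled CPM, above both libraries of every other class. It was higher in PANETH-PRE than in GOBLET-PRE (6.33 and 8.69) by 1.69 ± 0.31 (adjusted p = 5.1e-05) and lower in PANETH (3.65 and 13.7) than in PANETH-PRE by 1.42 ± 0.43 (adjusted p = 0.031; 0.89 without replicate 1 and 2.37 without replicate 2). SEC-PRO (9.89 and 11.3) had more than ISC (0 and 2.49), by 2.66 ± 0.38 (adjusted p = 3.8e-07). Mt4 had 2 UMIs.

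Tfrc, the transferrin receptor, had 257 and 244 scaled CPM in ISC and 130 and 160 in SEC-PRO, a difference of -0.79 ± 0.11 (adjusted p = 2.3e-09), and it was lower again in GP (-0.46 ± 0.12, adjusted p = 0.0017) and GOBLET-PRE (-0.50 ± 0.12, adjusted p = 0.0014). In PANETH against PANETH-PRE, where the ferritin transcripts were higher, Tfrc (-0.31 ± 0.16, adjusted p = 0.29) did not pass. Slc40a1, the iron exporter ferroportin, had 29.8 and 30.9 scaled CPM in ENTERO-PRO, 18.7 and 9.36 in NON-EC, and at most 3.56 in each library of every other class. It was higher in ENTERO-PRO than in ISC by 3.41 ± 0.42 (adjusted p = 1.3e-10). Slc11a2, the importer of ferrous iron, passed in none of the 13 comparisons, with 14.2 and 21.0 in ENTERO-PRO and 8.65 and 16.0 in ISC. Ncoa4, which carries ferritin to breakdown, was higher in SEC-PRO than in ISC (0.41 ± 0.16, adjusted p = 0.038) and in GP than in SEC-PRO (0.52 ± 0.16, adjusted p = 0.014). It was also higher in ENTERO-PRO than in ISC (0.66 ± 0.26, adjusted p = 0.034). Aco1, which encodes an iron regulatory protein, was higher in ENTERO-PRO (0.61 ± 0.22, adjusted p = 0.019), and Ireb2, which encodes the other, passed in none of the 13 comparisons.

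By list, 9 of 16 genes of iron uptake and export could be tested. The counts are read against the 34.5% of all genes called in SEC-PRO against ISC and the 37.0% in ENTERO-PRO against ISC. In SEC-PRO against ISC, 2 rose and 3 fell, with a median of 0.15 against 0.02 over all genes, and in ENTERO-PRO against ISC 3 rose and none fell (median -0.10 against -0.07), a share no higher than that of all genes. Slc39a14, which imports iron and zinc, was higher in both (0.78 ± 0.15, adjusted p = 1.6e-05, and 1.03 ± 0.23, adjusted p = 0.00014). Of 12 tested genes of iron sensing, storage and release, 3 rose and 1 fell in SEC-PRO and 4 rose and 2 fell in ENTERO-PRO. Pcbp1, a chaperone that delivers iron to ferritin, was 0.33 ± 0.09 higher in SEC-PRO (adjusted p = 0.0041) and lower in ENTERO-PRO (-0.34 ± 0.12, adjusted p = 0.015). Of 20 genes of mitochondrial iron and haem synthesis, 1 rose and 6 fell in SEC-PRO, a share near that of all genes. There Glrx5, a carrier of iron-sulphur clusters, was lower (-0.48 ± 0.12, adjusted p = 0.00068). None of these 20 passed in PANETH against PANETH-PRE (median 0.27 against 0.09), and of the iron sensing list only 1 did (8.10% of all genes called). Hmox1, which releases iron from haem, had 29 UMIs and was not tested.

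Among zinc transporters, Slc30a2, which loads zinc into vesicles, was most abundant in the Paneth lineage. It had 34.6 and 41.8 scaled CPM in PANETH-PRE and 83.1 and 85.0 in PANETH, against 0.527 and 0.543 in GOBLET-PRE. It was higher in PANETH-PRE than in GOBLET-PRE by 6.01 ± 0.34 (adjusted p = 1.3e-26) and in PANETH than in PANETH-PRE by 1.13 ± 0.20 (adjusted p = 2.2e-05). The latter does not hold with CPM of all UMIs, since the shift of all genes on that scale, given above, is larger. UMIs per cell were not compared for this gene. Slc30a2 and Mt2 thus had their maxima in different classes. Of the 19 tested genes of zinc transport and metal sensing, 3 rose (Slc30a2, Mt3 and Slc39a10, the last named after its values were seen) and none fell in PANETH-PRE against GOBLET-PRE (24.1% of all genes called), and Slc30a2 rose and Mt3 fell in PANETH against PANETH-PRE (8.10% called). In this list 7 rose and 1 fell in SEC-PRO against ISC (median 0.17 against 0.02 over all genes). There 34.5% of all genes were called, so calls within a list are not unusual. Slc30a7 (1.20 ± 0.14, adjusted p = 3.2e-11) and Slc39a7 (1.17 ± 0.12, adjusted p = 1.5e-13), transporters of the secretory pathway, led them. In ENTERO-PRO against ISC, where 37.0% of all genes were called, 8 rose and 1 fell (median 0.51 against -0.07). There Slc39a4, the zinc importer of enterocytes, was higher by 1.43 ± 0.23 (adjusted p = 4.2e-07), and so was Slc30a1, the zinc exporter that MTF1 also induces, by 2.15 ± 0.46 (adjusted p = 8.0e-05), although its 29.8 and 8.83 scaled CPM differed between libraries. Mtf1 itself passed in none of the 13 comparisons, with 13.2 and 14.8 scaled CPM in ISC and 11.4 and 11.3 in SEC-PRO. Slc39a4 was also higher in GOBLET than in GOBLET-PRE (1.47 ± 0.40, adjusted p = 0.0060).

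The factor NRF2 controls antioxidant genes and also induces ferritin. Of 19 tested genes of the antioxidant list, 2 rose, 9 fell and 8 did not pass in SEC-PRO against ISC, where 34.5% of all genes were called (median -0.36 against 0.02 over all genes), with Prdx6, a peroxidase (-0.98 ± 0.12, adjusted p = 8.4e-11), and Gsr, which regenerates glutathione (-0.79 ± 0.10, adjusted p = 8.4e-10), among those that fell. In ENTERO-PRO against ISC 9 rose and none fell (37.0% of all genes called, median 0.39 against -0.07), Gpx1 (0.62 ± 0.11, adjusted p = 1.7e-06) and Nfe2l2, the gene of NRF2 (0.46 ± 0.14, adjusted p = 0.0043), among them. In PANETH against PANETH-PRE 3 rose, Gclm (0.88 ± 0.21, adjusted p = 0.0021), Gpx4 (0.78 ± 0.15, adjusted p = 0.00013) and Txnrd1 (0.51 ± 0.13, adjusted p = 0.0045), and none fell (8.10% of all genes called, median 0.27 against 0.09). These too do not hold with CPM of all UMIs, and UMIs per cell were not compared for them. In GOBLET against GOBLET-PRE, where 12.1% of all genes were called, 1 rose and 5 fell, Txnrd1 among them (-1.26 ± 0.37, adjusted p = 0.013). The difference between both steps passed for Txnrd1 (1.77 ± 0.38, adjusted p = 0.00050). Nfe2l2 itself did not pass in PANETH against PANETH-PRE (-0.02 ± 0.19, adjusted p = 0.99). It was lower in PANETH than in GOBLET (-0.93 ± 0.33, adjusted p = 0.032, 18.8% of all genes called). PANETH-PRE also had less of it than GOBLET-PRE (-0.85 ± 0.15, adjusted p = 2.8e-06, 24.1% called), where 3 genes of the list rose and 7 fell. Whether NRF2 bears on the ferritin levels was not tested. Of 10 tested genes of copper handling, 1 rose and 3 fell in SEC-PRO against ISC (34.5% of all genes called). In ENTERO-PRO against ISC 3 rose (37.0% called), led by Slc31a1, the copper importer (1.28 ± 0.17, adjusted p = 8.2e-10). Both counts are near the share of all genes.

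Genes with the profile most like each member were ranked by Pearson's r of log2 CPM over the 24 sums, after the mean of each library was taken out. The sums share libraries and cell classes, so r is a description. For Fth1 these were Marc2 (0.942), Reg3g, an antimicrobial lectin (0.916), Rps27l (0.894), Pglyrp1, which binds bacterial peptidoglycan (0.870), and mt-Nd4 (0.861). For Ftl1 they were Eif1 (0.831), Sec62 (0.789), Sel1l (0.780), Tor2a (0.780) and Saraf (0.774). For Mt1 they were Cnih4 (0.826), Hint1 (0.826), Tkt (0.814), Pycard (0.786) and Dbi (0.778), and for Mt2 Ndufa4 (0.823), C1qbp (0.811), Timm50 (0.809), Rps12 (0.797) and Eif3k (0.795). No member was among the nearest of another: r was 0.615 between Fth1 and Ftl1 and 0.540 between Mt1 and Mt2.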

How the data were processed

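Reads were aligned with STAR and counted with Cell Ranger 3.0.2 on mm10, per the submitters' processing notes. The matrices are raw UMI counts for every barcode, as deposited, and a second deposited file names class and library of each cell retained by the authors (its percentage of mitochondrial UMIs, computed by the authors, was not used). Library names were matched through the matrix names. The rule behind the classes was not stated. The 4 genes and all gene lists were chosen with earlier results of these data known.

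UMIs were summed per class and library and fitted in R 4.3.3 with edgeR 4.0.16 (robust quasi-likelihood, terms for class and library, filterByExpr). TMM factors were taken over abundant genes (average log2 CPM 6 or more). Adjustment was Benjamini-Hochberg over 10994 genes, residual df were 11 and the median BCV was 0.0641. Library is a block because all classes of a library were sorted together: deviations correlated in all 66 class pairs (median r 0.297, 0.0551 to 0.776). Intervals are exact (Clopper-Pearson, 95%) and, like floors of 3 counts, cover counting error only. The fit was tested on simulated data. Doublets were not called. Alternatives were other scalings, no filter, DESeq2 1.42.0, no block, thinned cells and leaving out a library. Other genes were named by role, as up to 3 of the most changed called genes of a list (average log2 CPM 5 or more), or as the 5 nearest profiles.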

Additional observations from a re-analysis of the deposited data

Results flagged for a closer look

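The step from precursor to mature cell differed between the Paneth and goblet lineages for both ferritin genes, by the edgeR test of the difference itself. For Fth1 the Paneth step was 1.84 higher on the log2 scale (adjusted p = 3.1e-18) and for Ftl1 1.09 higher (adjusted p = 1.8e-08), each with the same sign in both libraries. With CPM of all UMIs the Fth1 difference was 0.72 and the Ftl1 difference -0.04. The share of UMIs held by the 20 most abundant genes rose from 38.6% and 37.6% in PANETH-PRE to 81.5% and 79.0% in PANETH, and was 53.8% and 52.4% in GOBLET. Its part in the result was not tested beyond these scales.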

How the results depend on the processing

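Over 27 results and 7 settings with a test, 162 of 189 values kept direction and side of the threshold, 15 lost the threshold, 4 passed it and 8 turned direction. All 8 turned with CPM of all UMIs: -0.47 (Fth1), -0.87 (Ftl1), -1.16 (Mt1) and -1.50 (Mt2) for PANETH against PANETH-PRE, -0.73 (Ftl1) against GOBLET, -0.30 (Mt1) for GOBLET against GOBLET-PRE, and -0.036 (Ftl1) and -0.86 (Mt1) for the difference between lineages. Values that had not passed also turned on that scale, Ftl1 in GOBLET-PRE against GP (-0.091), Mt1 in PANETH against GOBLET (-1.29), and Mt2 and Fth1 in PANETH-PRE against GOBLET-PRE (both -0.16), where thinned cells turned Mt2 (-0.32) and Mt1 (0.073). That scale also took Ftl1 in ENTERO-PRO against ISC (0.13), GP against SEC-PRO (0.27) and EEC-PRE against SEC-PRO (0.27) below the threshold, and Ftl1 in GOBLET (-0.83; TMM over all genes -0.49) past it.

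Without the replicate block, 7 of the 27 results no longer passed: Fth1 in SEC-PRO against ISC (-0.34) and GOBLET against GOBLET-PRE (-0.50), Ftl1 in ENTERO-PRO against ISC (0.29), GP (0.28) and EEC-PRE (0.31) against SEC-PRO and PANETH-PRE against GOBLET-PRE (-0.34), and Mt2 in SEC-PRO against ISC (0.63). The EC call for Mt2, counted apart, was lost too (adjusted p = 0.0634). The genes called then fell to 1911 from 3788 (SEC-PRO against ISC), 283 from 891 (PANETH against PANETH-PRE) and 595 from 932 (lineage difference). Thinned cells gave 2435, 330 and 464 of these, 2330 for ENTERO-PRO against ISC (4072), and Ftl1 at 0.28 (ENTERO-PRO) and 0.25 (GP). CPM of all UMIs gave 9026 (PANETH), 2812 (lineage difference) and 2056 (GOBLET, 1332). DESeq2's test gave 0.53 for Mt2 in SEC-PRO, its size factors 0.23 for Ftl1 in ENTERO-PRO and -0.92 for Mt1 in SEC-PRO, and TMM over all genes -0.89 for the latter and 0.16 for Ftl1 in EEC-PRE. The EC call for Mt2 had adjusted p of 0.0528 (CPM of all UMIs), 0.0566 (DESeq2) and 0.259 (thinned cells).

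Leaving out a library moved Mt2 in GOBLET-PRE against GP between -1.38 and -0.84 and in TUFT against SEC-PRO between -3.12 and -1.44, and for PANETH against PANETH-PRE Mt2 between 0.15 and 0.27 and Mt1 between -0.02 and 1.12. Mt1 turned sign for the lineage difference (-0.88 to 1.13) and EEC-PRE against SEC-PRO (-1.10 to 0.24). One library leaves no residual df, so these carry no test. They are differences of log2 CPM with a prior count of 2 and not refits. At low counts, as for Mt2, part of their distance from the fitted value can come from this. With CPM of all UMIs, and as the mean of single cells, Fth1 in PANETH was 919.7 and 903, Ftl1 there 407.7 and 426, Mt1 in ISC 403 and 400.2, and Mt2 in SEC-PRO 45.3 and 47.4. Thinned to 1000 UMIs, 30.7% and 32.0% of ISC cells held Mt1 and 5.62% and 4.11% of SEC-PRO cells Mt2. In barcodes of at most 20 UMIs, free RNA of replicate 2 held 1424 CPM of Fth1 and 761 of Ftl1. The cause of these changes was not tested. The rare classes limit the depth: GOBLET, EC and EEC-PRE held at most 236455 UMIs in a library.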
